A study of Mus musculus with 2 samples.

Results

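The mineralising chondrocyte-like cells of the mouse aorta are described here from 2 single-cell RNA-seq libraries, 1 labelled WT and 1 labelled Kif13b-/-. A cell barcode was taken as a member when it held at least 1500 unique molecular identifiers (UMIs, each standing for 1 captured mRNA molecule) with at most 20% of them mitochondrial, when the cartilage genes Acan, Col2a1, Chad, Cytl1 and Hapln1 together gave at least 5 UMIs and 1000 CPM (counts scaled to a total of 1000000), when C1qa, C1qb and C1qc together stayed under 1000 CPM, and when Col10a1, Alpl, Phex and Smpd3 together, the mineralising panel, gave at least 2 UMIs and 500 CPM. The members were thus chosen by measured levels of these 12 genes, by depth and by the mitochondrial share. By this rule 711 of 19995 barcodes were members, 664 of 13653 in the WT library and 47 of 6342 in the library labelled Kif13b-/-. The 2212 barcodes that met the cartilage conditions but not the panel (1821 in WT and 391 in the other library) are called other cartilage cells and serve as the comparison. Both libraries were made from whole aorta with a droplet-based 3' chemistry. Strain, sex, age, diet and the number of animals behind each library are not given in the sources used here, and the second library is titled as a knockout while its genotype field reads as a knock-down. With 1 library per genotype no difference between genotypes has a replicate check, and no p-value is given.

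When cartilage turns into bone, chondrocytes stop dividing, enlarge and become hypertrophic, and the matrix around them takes up calcium phosphate. Hypertrophic chondrocytes are known by type X collagen, encoded by Col10a1. Tissue-nonspecific alkaline phosphatase, encoded by Alpl, removes pyrophosphate, which blocks mineral growth, and releases phosphate. Phex, a membrane endopeptidase that acts on mineral-binding peptides, and Smpd3, a neutral sphingomyelinase needed for mineralisation of cartilage and bone, complete the panel. Chondrocyte-like cells with such genes are known from calcified arterial plaques and from the cartilage-like tissue of the mouse aorta.

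The DNA just upstream of 4 of the genes on which the description turns shows 2 kinds of start region among these 4. The sequences are from RefSeq (GRCm38.p6), each gives the 250 bases before the annotated start in the direction of the gene, and capitals mark 4 short motifs on either strand. These are the TATA box with the letters TATAAA and the core bound by RUNX factors with the letters TGTGGT. The others are a core bound by HOX and DLX factors with the letters TAATTA, and the GC box with the letters GGGCGG.
Col10a1, chr10:34389731-34389980, plus strand: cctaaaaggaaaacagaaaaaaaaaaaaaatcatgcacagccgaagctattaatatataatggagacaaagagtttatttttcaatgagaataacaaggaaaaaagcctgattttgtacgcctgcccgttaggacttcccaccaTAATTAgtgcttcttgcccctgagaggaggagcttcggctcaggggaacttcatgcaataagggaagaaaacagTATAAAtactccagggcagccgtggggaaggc
Bglap, chr3:88384467-88384716, minus strand: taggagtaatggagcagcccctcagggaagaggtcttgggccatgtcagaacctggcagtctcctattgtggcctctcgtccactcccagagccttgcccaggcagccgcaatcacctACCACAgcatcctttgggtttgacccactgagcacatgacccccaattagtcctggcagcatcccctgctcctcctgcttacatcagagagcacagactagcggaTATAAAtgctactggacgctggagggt
Alpl, chr4:137796385-137796634, minus strand: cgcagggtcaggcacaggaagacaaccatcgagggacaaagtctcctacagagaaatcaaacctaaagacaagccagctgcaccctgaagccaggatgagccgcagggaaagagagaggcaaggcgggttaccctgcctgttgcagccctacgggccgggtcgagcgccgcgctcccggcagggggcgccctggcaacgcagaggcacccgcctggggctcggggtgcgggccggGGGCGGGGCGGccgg
Ihh, chr1:74951673-74951922, minus strand: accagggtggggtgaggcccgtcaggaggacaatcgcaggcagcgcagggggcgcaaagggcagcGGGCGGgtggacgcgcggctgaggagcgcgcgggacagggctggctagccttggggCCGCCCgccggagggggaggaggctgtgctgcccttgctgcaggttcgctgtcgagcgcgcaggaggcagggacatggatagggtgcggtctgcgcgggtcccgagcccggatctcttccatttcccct
Col10a1 held a TATA box from base -32 to -27 and TAATTA from -106 to -101, counted back from the start. Bglap held a TATA box from -27 to -22 and, on the opposite strand, the RUNX core from -132 to -127. Alpl and Ihh held no TATA box and 2 GC boxes each, overlapping in Alpl. Their windows were 68.4% and 72% G or C, against 41.6% for Col10a1 and 56.4% for Bglap and a median of 52.4% over 32851 promoter windows of the same length. Of those windows 12.4% held TATAAA, 14% TGTGGT, 4.84% TAATTA and 32.7% GGGCGG. The AP-1 letters TGANTCA, held by 6.75% of all windows, were in none of the 4. Ibsp was scanned too but is not printed, since 116 of its 250 bases lie inside the gene in a further annotation. Its window was 43.6% G or C, with no GC box and TATAAA only on the opposite strand, from -28 to -23. These matches describe letters only.

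The rule genes themselves chose the members, so their values are a description. In the WT library Col10a1 summed to 2067 CPM over the members and 14.5 CPM over other cartilage cells, and in the library labelled Kif13b-/- to 1232 and 6.43 CPM. Alpl stood at 1030 and 29 CPM in WT and at 488 and 29.6 CPM in the other library. Phex gave 265 and 19.3 CPM in WT and 270 and 27.2 CPM in the other, and Smpd3 260 and 10.7 CPM, then 111 and 6.17 CPM. Per barcode, the WT members ran from 0 to 55774 CPM of Col10a1 with a median of 518 CPM. Of the WT members 333 had Col10a1 as their highest panel gene, 273 Alpl, 42 Phex and 16 Smpd3. All 4 panel genes were seen in 102 WT members, and a single one in 130. In the library labelled Kif13b-/- 26 of 47 members held no Col10a1 UMI, against 197 of 664 in WT. Its members were led by Alpl in 24 barcodes and by Col10a1 in 13.

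Just inside the threshold, the 42 WT members with 500 to 600 CPM of the panel carried 9815 CPM of Ibsp. Just outside it, the 41 WT barcodes with 2 or more panel UMIs at 400 to 500 CPM carried 4319 CPM, and the 52 with 1 panel UMI at 500 CPM or more carried 4203 CPM. The cells on both sides of the threshold thus held Ibsp, a gene that the rule did not use, and the gate cuts a range of values rather than a gap.

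The members made up 4.86% of the WT barcodes (exact binomial 95% interval 4.51 to 5.24) and 0.741% of those of the library labelled Kif13b-/- (0.545 to 0.984), a ratio of 0.152. Cartilage-gated barcodes as a whole were 18.2% and 6.91% of their libraries. Within the cartilage gate the members were 664 of 2485 barcodes in WT, 26.7% (25 to 28.5), and 47 of 438 in the other library, 10.7% (7.99 to 14), a ratio of 0.402. Fewer members were therefore found both among all barcodes and among cartilage cells, while the ratio differed with the denominator. The intervals cover counting error only; dissection and cell recovery could not be told apart from genotype. Members had a median of 3895 UMIs in WT and 4921 in the other library, against 3410 and 5115 in other cartilage cells. The mineralising panel alone, without the cartilage condition, was met by 7.54% of all WT barcodes and 1.39% of those of the other library. The gates of other cell types hold under 1000 CPM of the cartilage genes, so their barcodes cannot be members. Of lymphocyte-gated barcodes 0 of 195 met the panel in WT, which allows a share of up to 1.87%, and 1 of 101 in the other library. Of macrophage-gated barcodes 15 of 1313 and 4 of 1904 met it, and of smooth muscle barcodes 51 of 3518 and 5 of 1360. Endothelial barcodes met it in 21 of 485 cases in WT (4.33%) and 5 of 173 in the other library (2.89%), and modulated stroma in 2 of 45 and 0 of 48.

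Over all barcodes that passed the filters, the WT library held 84513978 UMIs and the library labelled Kif13b-/- 61831847, with medians of 3465 and 6610 UMIs and of 5.35% and 7.84% mitochondrial UMIs. The 2 libraries shared 52 barcode sequences, 28 of them passing the filters, and none was a member in both. Kif13b, the targeted kinesin, summed to 70.7 CPM over all WT barcodes and 43.9 CPM over those of the other library. In the members it stood at 78.4 CPM in WT and 96.2 CPM in the library labelled Kif13b-/- (log2 ratio 0.31, 95% interval -0.13 to 0.7), and at 72.6 CPM there without the 5 deepest members, so the direction turned. A 3' count can lie outside a deleted part, so this level does not check the genotype.

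Ibsp, which encodes bone sialoprotein, a secreted glycoprotein that nucleates hydroxyapatite, was the one marker of these cells that the rule left free. It stood at 17565 CPM in the WT members and 2185 CPM in other WT cartilage cells, a log2 ratio of 3.01 (95% interval 2.99 to 3.03). The library labelled Kif13b-/- had it at 9488 and 3087 CPM, a log2 ratio of 1.62 (1.57 to 1.67). An Ibsp UMI was found in 91.6% and 91.5% of the members of the 2 libraries, against 49.1% and 52.9% of other cartilage cells and 6.15% and 0.99% of lymphocyte-gated barcodes. With every barcode thinned to 1500 UMIs these shares became 83.7% and 83% of members and 40.6% and 39.4% of other cartilage cells. The members held 71.4% of all Ibsp UMIs of the WT library, and 6.22% of all its UMIs. They held 23.5% of the Ibsp UMIs of the library labelled Kif13b-/-, and 0.958% of its UMIs. Spp1, which encodes osteopontin, a mineral-binding protein that is also made by macrophages, did not follow Ibsp. It gave 25811 CPM in WT members and 27947 CPM in other cartilage cells, and 12449 and 33773 CPM in the other library.

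**Figure D1:**
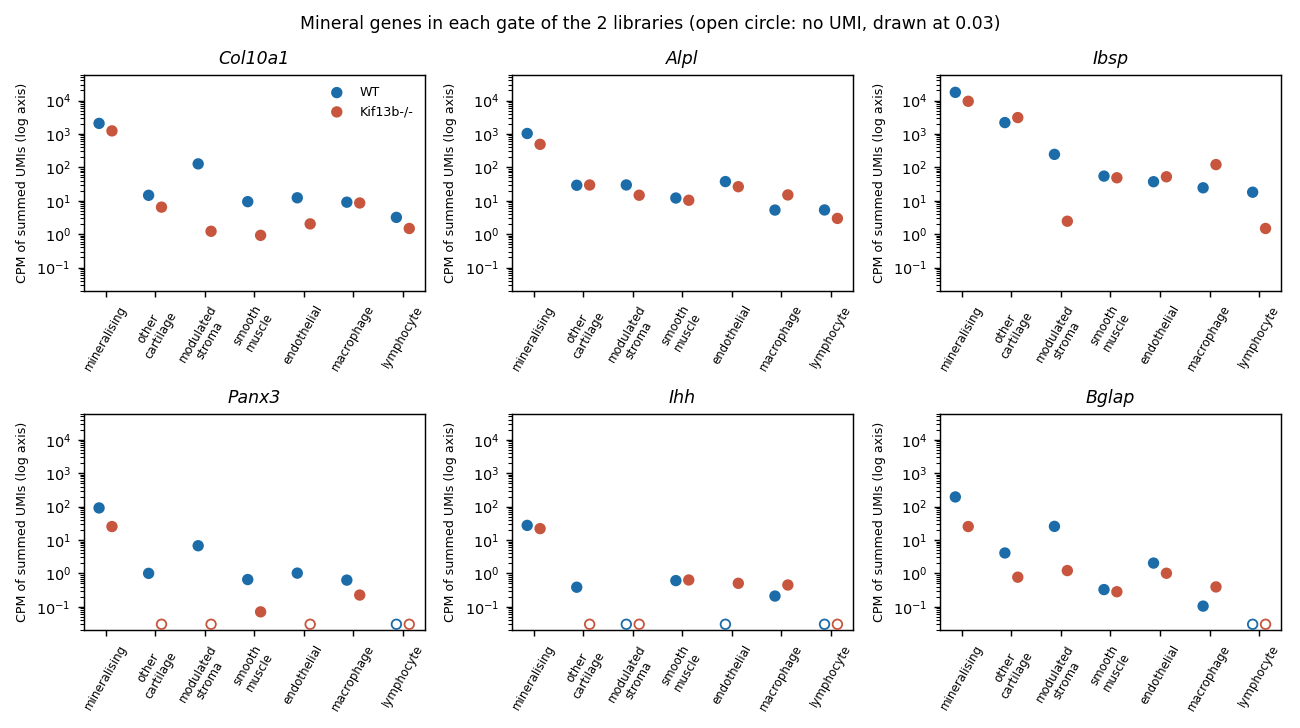
CPM of 6 mineral genes summed over the barcodes of each gate, on a log axis, with WT in blue and the library labelled Kif13b-/- in red, and open circles for no UMI. The mineralising cells are the highest gate for each of the 6 genes in both libraries; Col10a1 and Alpl chose them, and Ibsp reached 17565 and 9488 CPM there.

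Panx3 and Ihh, genes of hypertrophic and prehypertrophic cartilage, were higher in the members than in other cartilage cells. Panx3, a pannexin channel of hypertrophic chondrocytes and osteoblasts, gave 91.4 CPM in WT members and 1 CPM in other WT cartilage cells. Members of the library labelled Kif13b-/- gave 25.3 CPM of Panx3, from 15 UMIs in 4 members. Other cartilage cells there had no UMI, so members were at least 32.8-fold higher when the floor is set at 3 UMIs over that group. Ihh, the hedgehog ligand that prehypertrophic chondrocytes secrete, gave 27.4 and 0.386 CPM in WT. In the other library it gave 21.9 CPM in members (13 UMIs in 3 members) and no UMI in other cartilage cells, at least 28.4-fold higher. Members held 85.4% of the WT library's Panx3 UMIs and 81.8% of its Ihh UMIs, but 68.2% of Panx3 (15 of 22 UMIs) and 37.1% of Ihh (13 of 35 UMIs) in the library labelled Kif13b-/-. In WT an Ihh UMI was found in 39 members, 36 of which also held Col10a1, and a Panx3 UMI in 119 members, 107 of which held Col10a1. Panx3 was seen in 21 of the 39 Ihh members, 53.8%, against 17.9% of all WT members; members with an Ihh UMI had a median of 11949 UMIs, so that depth differed too.

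Genes of bone-forming cells were found in the same barcodes. Bglap, which encodes osteocalcin, a calcium-binding protein of bone matrix, gave 195 CPM in WT members and 4.09 CPM in other cartilage cells, with log2 ratio 5.56 (5.17 to 6). A single WT member held 44.3% of these 1024 UMIs, and without it Bglap was at 109 CPM, a log2 ratio of 4.72. The values were 25.3 and 0.771 CPM in the library labelled Kif13b-/-. Of the 106 WT members with a Bglap UMI, 91 held Col10a1 (85.8%), 104 Ibsp (98.1%) and 44 Panx3 (41.5%). Over all WT members these shares were 70.3%, 91.6% and 17.9%. The 27 WT members with 5 or more Bglap UMIs carried 2495 CPM of Sox9, the chondrocyte master regulator, 30348 CPM of Ibsp and 3676 CPM of Col10a1. Their Col1a1, the main collagen of bone, was at 2478 CPM against 4017 CPM over all WT members. These 27 had a median of 16750 UMIs, against 3895 over all WT members, so that depth differed too. Mepe, which encodes a phosphoglycoprotein of bone and tooth matrix, gave 29.3 and 0.618 CPM in WT, and 10.1 CPM and no UMI in the other library. Dmp1, an osteocyte matrix gene, gave 18.3 and 0.463 CPM in WT and no UMI in the 47 other members, which allows up to 5.06 CPM. Only 19 WT members, 2.86%, held a Dmp1 UMI, so its absence from 47 members does not show a loss. Reads of Bglap and of its neighbouring copy Bglap2 may be exchanged, since the genes are near-identical; Bglap2 gave 132 and 10.3 CPM in WT, and 70.7 CPM in members without that same barcode.

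Transcription factors differed one by one. Runx2, which switches on both hypertrophy and bone formation, gave 162 CPM in WT members and 43.3 CPM in other cartilage cells (log2 ratio 1.9, 1.74 to 2.06). The library labelled Kif13b-/- gave 106 and 35.2 CPM (1.6, 1.14 to 2.03). Sp7, which encodes osterix and acts downstream of Runx2, gave 36.9 and 7.11 CPM in WT and 20.3 and 6.43 CPM in the other library. Foxa3, a forkhead factor that drives hypertrophy together with Foxa2, gave 54.6 and 19 CPM in WT and 81 and 20.1 CPM in the other library. Foxa2 gave 18.1 and 2.63 CPM in WT. Dlx5 reached 20.6 CPM in WT members and 3.78 CPM in other cartilage cells, but 5.06 and 4.88 CPM in the other library, where its 5.06 CPM rests on few UMIs. Mef2c gave 458 and 239 CPM in WT, under the 2-fold used here, and 243 and 250 CPM in the other library. Sox9 itself hardly separated the groups in WT, at 1579 and 1516 CPM, and stood at 1718 and 885 CPM in the library labelled Kif13b-/-. These factors were picked with earlier results known. A list of chondrocyte transcription factors and matrix synthesis enzymes holds Sox9 but not the other factors named here. In WT 3 of its 28 genes with enough UMIs were 2-fold higher and 0 lower, beside 3.02% and 4.55% of all genes. In the other library 2 of 24 were higher and 2 lower, beside 5.08% and 11.6%. In both libraries 0 of 24 were higher, beside 0.77%.

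Of the 37 genes of a list of bone and mineral genes, 31 had at least 20 UMIs in the WT comparison, and 18 of these were at least 2-fold higher in members and 0 at least 2-fold lower. Over all 14263 genes with 20 UMIs in that comparison, 3.02% were 2-fold higher and 4.55% 2-fold lower. In the library labelled Kif13b-/- 24 genes of the list had 20 UMIs; 9 were 2-fold higher and 3 2-fold lower, against 5.08% and 11.6% of 10913 genes. In both libraries 7 of 24 were 2-fold higher and 0 2-fold lower, against 0.77% and 1.39% of genes with enough UMIs in both. The list's median log2 ratio was 1.45 in WT and 0.85 in the other library, beside -0.06 in each over all genes. The list holds genes that were known to be high in these cells from earlier results on the same data. Endothelial genes went the other way and are given here because they move with the comparison. All 12 of that list were 2-fold lower in members of the library labelled Kif13b-/- and 4 of 12 in WT. Their summed level was 398 CPM in members and 758 CPM in other cartilage cells of WT, and 241 and 1431 CPM in the other library; Emcn and Tie1 had no UMI in the 47 members. Without barcodes that passed the smooth muscle or endothelial panel, the median log2 ratio of the endothelial list went from -0.92 to 0.008 in WT and from -3.14 to -0.58 in the other library. The median of the bone mineral list was then 1.43 in WT and 0.56 in the other library, and the log2 ratio of Ibsp 3 and 1.21.

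**Figure D2:**
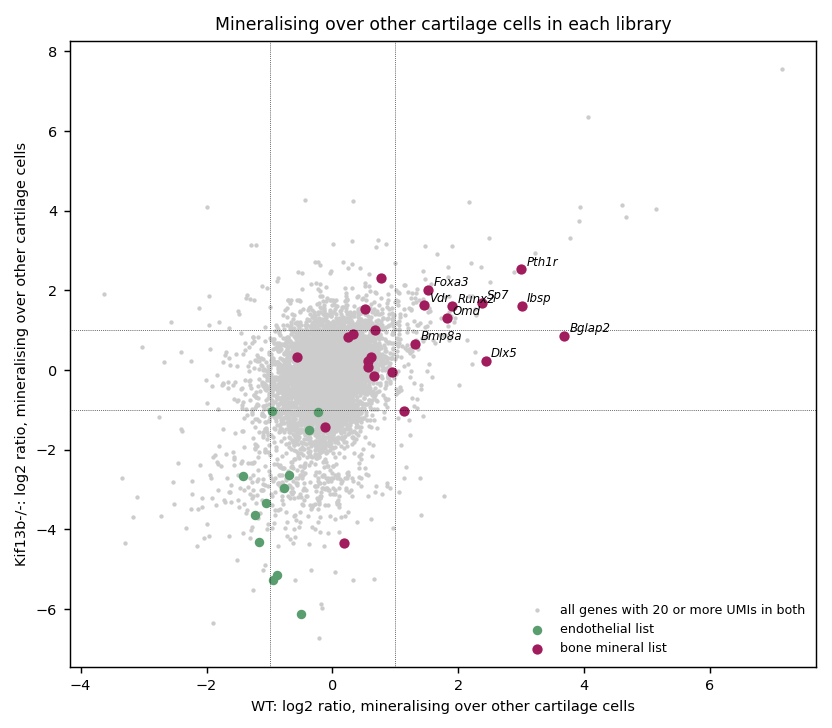
Log2 ratio of mineralising over other cartilage cells for each gene with at least 20 UMIs in both libraries, WT on the x axis and the library labelled Kif13b-/- on the y axis, with the bone mineral list in purple and the endothelial list in green; dotted lines mark 2-fold. Ibsp lies at 3.01 and 1.62 and Pth1r at 3 and 2.53, while the 12 endothelial genes lie under 0 in both, though in WT their median was 0.008 without barcodes of the smooth muscle or endothelial panel.

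Ligands and receptors of the growth plate were unevenly present. Pth1r, the receptor for parathyroid hormone-related protein, which delays hypertrophy, gave 401 CPM in WT members and 50.1 CPM in other cartilage cells (log2 ratio 3, 2.87 to 3.13). In the library labelled Kif13b-/- it gave 275 and 47.6 CPM (2.53, 2.22 to 2.84). A Pth1r UMI was also found in 19.1% and 20.2% of other cartilage cells. Its ligand Pthlh was lower in members, at 4 CPM in WT against 14.4 CPM in other cartilage cells. In the other library 2 Pthlh UMIs in members, under the floor of 3, stood against 21.3 CPM in other cartilage cells. The hedgehog receptor and target Ptch1 gave 57.7 and 47 CPM in WT, and the target Gli1 2.86 and 4.09 CPM. Bmp6 gave 155 and 46.8 CPM in WT and 218 and 87.9 CPM in the other library, and Bmp2 399 and 190 CPM, then 400 and 151 CPM; both are bone morphogenetic proteins. The Bmp6 difference in the library labelled Kif13b-/- turned to a log2 ratio of -0.33 when each barcode was thinned to 1500 UMIs. Wnt5b, a non-canonical Wnt ligand, gave 57.7 and 11.3 CPM in WT and 38.8 and 6.43 CPM in the other library. Il17b, an interleukin 17 family cytokine, gave 68.9 and 4.48 CPM in WT and 81 and 4.63 CPM in the other library, and an Il17b UMI was found in 84 of 664 and 10 of 47 members. Fgf1 gave 85.5 and 29.7 CPM, then 81 and 27.8 CPM. In the library labelled Kif13b-/- 1 of the 14 members with an Fgf1 UMI held 52.1% of the 48 UMIs. Without the 5 deepest members Fgf1 was at 120 CPM there. Of 43 genes of BMP and TGF-beta signalling with enough UMIs in WT, 3 were 2-fold higher and 4 2-fold lower; of 27 Wnt genes, 4 and 2; of 22 hedgehog, PTHrP and FGF genes, 3 and 4, where 3.02% and 4.55% of all genes were. In the other library the counts were 4 and 7 of 39, 2 and 7 of 21, and 3 and 3 of 18, where 5.08% and 11.6% of all genes were.

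The cartilage matrix changed in part. Snorc, a small chondrocyte membrane proteoglycan, gave 1624 CPM in WT members and 289 CPM in other cartilage cells, and 1598 and 161 CPM in the library labelled Kif13b-/-. Comp, cartilage oligomeric matrix protein, gave 2914 and 809 CPM in WT, and 1266 and 748 CPM in the other library. Per barcode Comp went the other way in the library labelled Kif13b-/-, with medians of 22.2 CPM in members and 116 CPM in other cartilage cells. A Comp UMI was found there in 51.1% and 55% of them. Pcolce2, which enhances trimming of procollagens, gave 1849 and 402 CPM in WT and 1729.8 and 266 CPM in the other library. Prg4, which encodes the joint lubricant lubricin and marks superficial cartilage, was lower in WT members, at 702 against 2337 CPM, and close to even in the other library at 1451 and 1266 CPM. Mmp3 behaved in the same way, at 789 and 2668 CPM in WT and 856 and 1118 CPM in the other library. Of 37 cartilage matrix genes with enough UMIs in WT, 7 were 2-fold higher and 5 2-fold lower, beside 3.02% and 4.55% of all genes. In the other library the counts were 13 and 3 of 32, beside 5.08% and 11.6%. Mmp13, the collagenase of late hypertrophic cartilage, gave 234 and 137 CPM in WT and 422 and 84.6 CPM in the library labelled Kif13b-/-, where 17% of members held a UMI.

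Inhibitors of mineralisation with enough UMIs were not raised 2-fold with the mineral genes. Mgp, matrix Gla protein, an inhibitor of arterial calcification, was lower in members, at 11358 against 20632 CPM in WT and 12659 against 20643 CPM in the library labelled Kif13b-/-, short of 2-fold in both. Ank, which exports the phosphate donor of extracellular pyrophosphate, gave 627 and 574 CPM in WT, and Enpp1, which makes pyrophosphate, 294 and 209 CPM. The phosphate carriers Slc20a1 and Slc20a2 gave 154 and 162 CPM and 22.1 and 21.2 CPM in WT. Of the 13 genes of this list with enough UMIs in WT, 0 were 2-fold higher and 0 2-fold lower, beside 3.02% and 4.55% of all genes. Its median log2 ratio was -0.07. In the library labelled Kif13b-/- 0 of 12 were higher and 2 lower, beside 5.08% and 11.6% of all genes, with a median of 0.12. So short a list, with counts near those shares, is not set apart from other genes by them.

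Genes that the naming rule picked as highest in both libraries held a group of cholesterol synthesis. Idi1, an isomerase of the mevalonate pathway, gave 53.5 CPM in WT members and 14.9 CPM in other cartilage cells, and 52.3 and 8.74 CPM in the library labelled Kif13b-/-. Msmo1, a sterol oxidase, gave 73.5 and 26.6 CPM, then 70.9 and 14.7 CPM. Insig1, the sterol sensor that restrains the pathway, gave 94.6 and 37.9 CPM, then 101 and 28.8 CPM. A list of 22 genes of the pathway was then drawn up, after these values were seen. Of its members with enough UMIs 12 of 21 were 2-fold higher in WT and 16 of 17 in the other library, with 0 lower in either, and 10 of 17 were higher in both, beside 3.02%, 5.08% and 0.77% of all genes. Without Idi1, Msmo1 and Insig1, which prompted the list, 9 of 18, 13 of 14 and 7 of 14 were higher. With those genes the median log2 ratio was 1.03 in WT and 1.78 in the other library. In the library labelled Kif13b-/- Idi1, Msmo1 and Insig1 were seen in 8, 12 and 18 members. A single member held 35.5%, 35.7% and 36.7% of their UMIs, and without the 5 deepest members they were at 41.9, 50.2 and 86.5 CPM. Idi1 was at 0 CPM in its members of 1500 to 3000 and 3000 to 10000 UMIs. At 10000 UMIs or more it was at 67 CPM, against 8.15 CPM in other cartilage cells.

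Among the 10 genes named as lowest in both libraries, 4 are made by endothelial cells. Gas1, a hedgehog co-receptor linked to growth arrest, gave 96.7 CPM in WT members and 344 CPM in other cartilage cells, and 55.7 and 281 CPM in the library labelled Kif13b-/-. Apoe, the lipid carrier apolipoprotein E, gave 682 and 1813 CPM in WT and 346 and 1330.4 CPM in the other library. Bpifb1 gave 88.5 and 469 CPM, then 115 and 324 CPM. The endothelial genes are Cldn5, Ptprb, Vwf and Cavin2, and the ratios of Ptprb, Vwf and Cavin2 in WT passed to the other side of 0 when barcodes that also passed the smooth muscle or endothelial panel were left out. Cdkn1c, a cell-cycle inhibitor of hypertrophic chondrocytes, gave 58.8 and 15.2 CPM in WT and 92.8 and 37.5 CPM in the other library. There 1 of 5 members with a UMI held 83.6% of its UMIs, and the log2 ratio was -0.99 without the member of most UMIs.

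Along the panel, the levels moved by degrees. Among WT cartilage-gated barcodes Ibsp went from 1135 CPM with no panel UMI to 3851 CPM under the gate, and then to 9130, 13875, 24324 and 23453 CPM in members of 500 to 1000, 1000 to 2000, 2000 to 5000 and at least 5000 CPM of the panel. Lum, which encodes the small proteoglycan lumican, fell over the same order from 5377 CPM with no panel UMI to 1051 CPM in the top bin. Mgp went from 21087 to 7259 and 8989 CPM in the top pair of bins. Panx3 stayed at 24.1 to 75.4 CPM in the first 3 bins of members and reached 297 CPM in the last. Summed Bglap was highest in the third bin of members, at 439 CPM, against 210 CPM in the last. A single WT member held 454 of the 1024 Bglap UMIs of all WT members, however. The order of the Bglap bins can rest on that barcode, and it was not tested without it. The bins share barcodes of 1 library and the highest bin had the deepest barcodes, with a median of 9293 UMIs, so the order is a description. The 3 members of the library labelled Kif13b-/- in the top bin carried 19424 CPM of Ibsp and 123 CPM of Panx3, and only 5 of its 47 members lay at 2000 CPM or above.

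**Figure D3:**
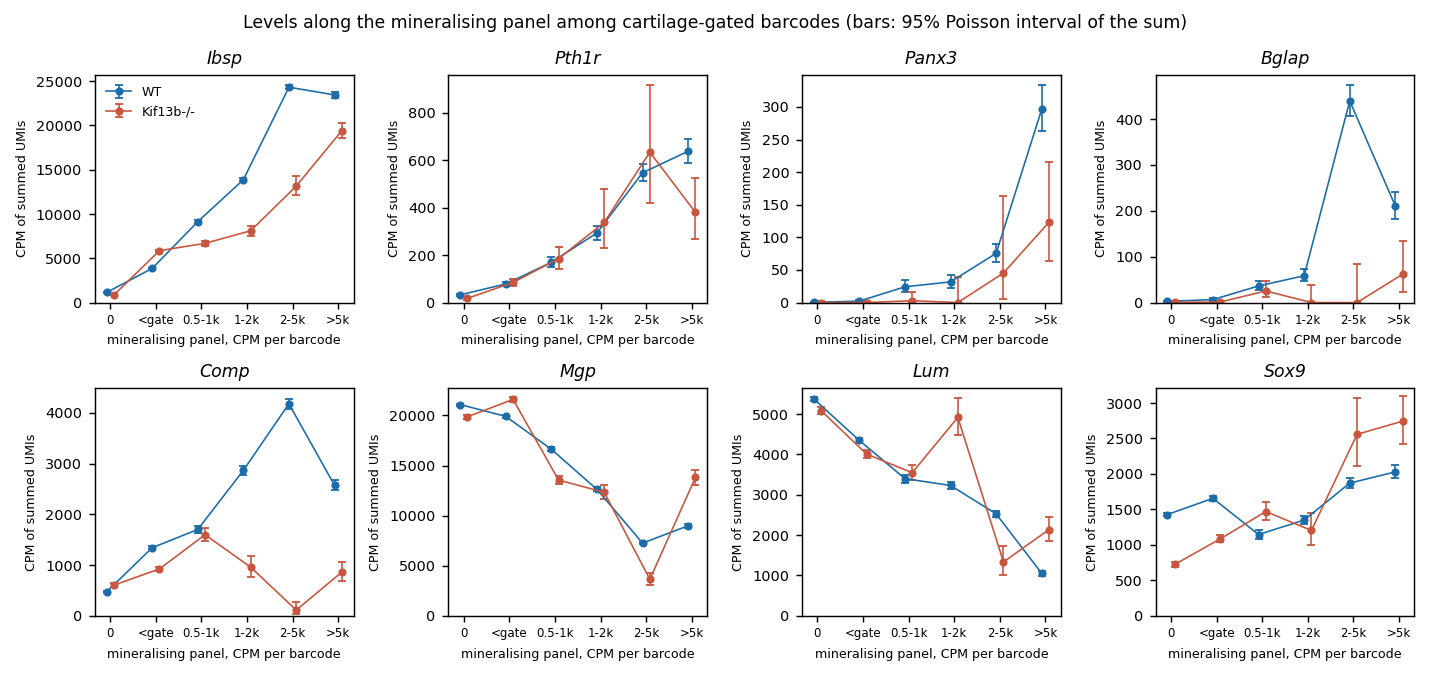
CPM of 8 genes summed over cartilage-gated barcodes in bins of the mineralising panel, from no panel UMI on the left to above 5000 CPM on the right, with WT in blue and the library labelled Kif13b-/- in red; bars are 95% Poisson intervals of the sums. In WT Ibsp goes from 1135 to 23453 CPM and Lum from 5377 to 1051 CPM; the upper bins of the other library hold 2 and 3 barcodes.

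Depth and transcripts of other cells were checked in the same way. Among WT barcodes of at least 10000 UMIs, 170 members carried 22336 CPM of Ibsp and 351 other cartilage cells 2645 CPM, so the difference was present in the deepest cells. There Acta2, smooth muscle actin, was at 398 and 415 CPM and Lyz2, a macrophage gene, at 22.5 and 15.4 CPM. In members of 1500 to 3000 UMIs Acta2 was at 2085 CPM and Lyz2 at 307 CPM. The panel of Myh11, Cnn1 and Lmod1 was passed by 20.8% of WT members and 20.9% of other WT cartilage cells. Of 28 contractile genes 2 were 2-fold higher in WT members, Pln at 52 against 10.8 CPM and Ramp1 at 124 against 41.2 CPM, and 0 were lower, beside 3.02% and 4.55% of all genes; in the other library 0 were higher and 6 of 28 lower, beside 5.08% and 11.6%. Genes that define osteoclasts, the cells that resorb bone, were near 0, with Acp5 at 6.47 CPM, Atp6v0d2 at 1.9 CPM and Dcstamp at 0.761 CPM in WT members. Proliferation genes summed to 189 CPM in WT members and 170 CPM in other cartilage cells, with 0 of 16 genes past 2-fold. In the library labelled Kif13b-/- they summed to 375 and 219 CPM, and 5 of 13 were 2-fold higher and 0 lower.

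Between the libraries, the members of the library labelled Kif13b-/- carried less of 17 of 31 bone mineral genes, and lists of other cells moved too. Ibsp was lower, at 9488 against 17565 CPM (log2 ratio -0.89, -0.93 to -0.85; -0.57 with a panel of 3 UMIs and 1000 CPM, -0.55 with barcodes weighted equally and -0.51 with thinning, short of 1.5-fold), and so was Spp1 (-1.05, -1.09 to -1.02). Bglap gave 25.3 against 195 CPM (-2.9, -3.79 to -2.22, and -2.06 without the 1 WT member that held most Bglap), Bglap2 10.1 against 132 CPM (70.7 CPM without that member), Panx3 25.3 against 91.4 CPM (-1.81, -2.7 to -1.12) and Comp 1266 against 2914 CPM (-1.2, -1.31 to -1.1). In summed UMIs Ihh was not separated, at 21.9 against 27.4 CPM (-0.27, -1.27 to 0.5), though only 3 members of the library labelled Kif13b-/- held it. Summed Snorc was not separated either, at 1598 against 1624 CPM (-0.02, -0.12 to 0.07). Per barcode it differed. A Snorc UMI was found in 31.9% of members of the library labelled Kif13b-/- and 54.1% in WT, with medians of 0 and 96.2 CPM. Of 31 bone mineral genes with 20 UMIs, 17 were at least 1.5-fold lower and 4 at least 1.5-fold higher, against 16.1% lower and 17.2% higher of 11282 genes. The list's median log2 ratio was -0.6, beside 0.03 over all genes. Contractile genes were lower in 16 of 28 cases and higher in 2 (median -0.68), and endothelial genes lower in 8 of 12 and higher in 0 (-1.17). Fibroblast genes were higher in 8 of 11 cases and lower in 1 (1.01), and proliferation genes higher in 10 of 13 and lower in 1 (1.12). Without barcodes of the smooth muscle or endothelial panel the medians were -0.79 for the bone mineral list, -0.28 for contractile and -0.76 for endothelial genes; the part of fibroblast and proliferation genes in the result was not tested. In other cartilage cells 4 of 27 were lower and 3 higher, where 7.59% and 11.9% of all genes were; Ibsp was there higher in the library labelled Kif13b-/-, with a log2 ratio of 0.5. Dmp1, with 96 UMIs in WT members and 0 in the others, was at least 3.61-fold lower in summed UMIs alone. Those 96 UMIs came from 19 members, 2.86% of all WT members. At so low a share, the members of the library labelled Kif13b-/- are too few for the absence of Dmp1 to show a loss. The 2 sets of members also differ in where they lie along the panel, as given above.

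A few barcodes weigh heavily in the library labelled Kif13b-/-. Its 5 deepest members held 39.5% of the members' UMIs and 87% of their Col10a1 UMIs, whereas the 5 deepest WT members held 4.17% and 0.359%. Without those 5, Col10a1 was at 265 CPM rather than 1232 CPM, Panx3 at 8.37 CPM, Bglap at 19.5 CPM, Ibsp at 10960 CPM and Comp at 1401 CPM. All 5 remained under the WT members' levels. Pth1r was at 329 CPM without them and Runx2 at 134 CPM, nearer to the WT values of 401 and 162 CPM.

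**Figure D4:**
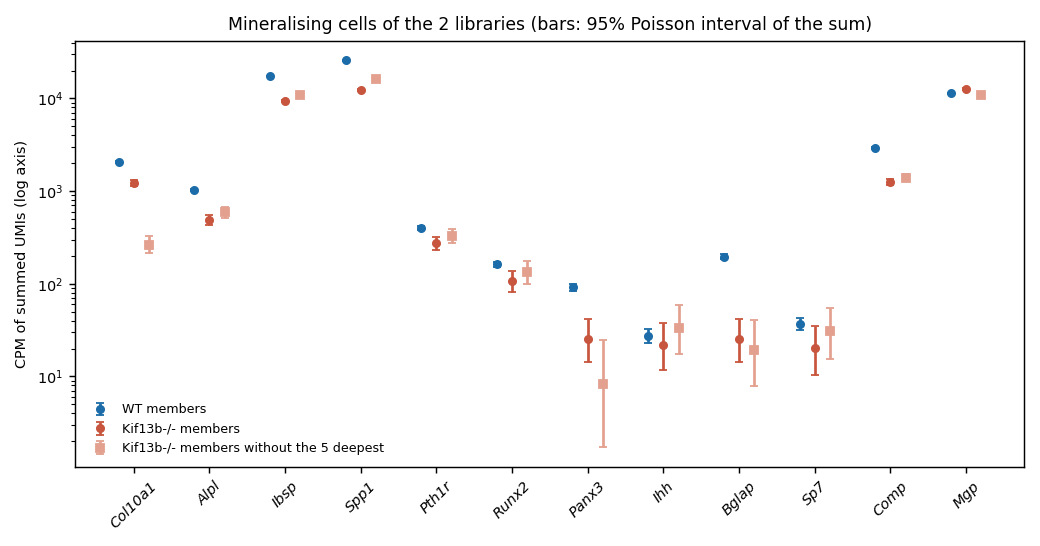
CPM of 12 genes summed over the mineralising cells, on a log axis, for WT members (blue), members of the library labelled Kif13b-/- (red) and the same without its 5 deepest barcodes (pale squares); bars are 95% Poisson intervals. Col10a1 moves from 1232 to 265 CPM without the 5 barcodes, while Ibsp stays between 9488 and 10960 CPM.

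The genes named as highest over WT show the same weight of single barcodes. Angptl1, an angiopoietin-like protein, had 87 UMIs in the members of the library labelled Kif13b-/- and 0 in WT members, at least 257-fold higher with a floor of 3 UMIs over the group, but 96.6% of the 87 were in 1 barcode and 4 barcodes held any. Penk, Ifit3, Slurp1, Col25a1, Spink5 and Kcnj8 likewise had over 90% of their UMIs in 1 barcode, and Isg15 and Ifit1 85.7% and 84.4%. Csf2, Dio2 and Wfdc12 had 44.8%, 44.2% and 52.9% in 1 of 3 barcodes. None of the 12 highest genes was seen in more than 9 of the 47 members. Among the 12 lowest, Chil1, a chitinase-like glycoprotein of cartilage and inflamed tissue, gave 228 against 1908 CPM and was seen in 4 of 47 and 321 of 664 members. Smoc2, a matricellular protein, gave 87.8 against 353 CPM in 23 and 383 members, Wif1, a Wnt inhibitor, 40.5 against 226 CPM in 14 and 223, and Hmox1, heme oxygenase 1, 38.8 against 158 CPM in 17 and 284. Saa3 gave 140 against 734 CPM, with 92.8% of its UMIs in 1 member. Grb14, Mctp1, Pln, Fxyd3 and Lbp gave 8.44 to 23.6 CPM against 52 to 116 CPM. Most of the 12 lowest were lower in other cartilage cells too, so they are not particular to the members. The log2 ratios between libraries there were -2.44 for Saa3, -2.2 for Bglap, -1.96 for Fxyd3, -1.15 for Smoc2 and -1.1 for Chil1. Bglap2, Pln, Grb14, Wif1, Hmox1 and Lbp stood at -0.77, -0.67, -0.64, -0.58, -0.47 and -0.46. Mctp1 went the other way, at 2.45. Mertk, the efferocytosis receptor that the series' title names, gave 70.9 against 34.6 CPM and a log2 ratio of 1.05 (0.51 to 1.52), which was -0.25 without the 5 deepest members.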

How the data were processed

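Aortic cells were profiled as 2 droplet libraries, 1 per genotype. The deposited matrices hold whole UMI counts per gene and barcode, made by the authors with Cell Ranger 8.0.1, per the file headers, against mm10, per the submitters' processing notes; the annotation and read filters are not given in the sources used here. The feature and barcode lists hold names only. About 6000 cells were loaded per channel, per the labels' protocols, while the matrices hold 21126 and 7766 barcodes. The groups came from the title and the genotype label.

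Counts were summed over the barcodes of a gate and divided by the gate's total (CPM). Log2 ratios used a prior count of 0.5, genes needed 20 UMIs over both groups, and a call was a ratio of at least 2-fold within a library or 1.5-fold between libraries. Shares have Clopper-Pearson intervals, sums exact Poisson intervals and ratios exact 2-count intervals, all at 95% and all for counting error only; barcodes are not replicates, and no test between genotypes was made. Comparison gates used Myh11, Cnn1 and Lmod1 (smooth muscle), Pecam1, Cdh5, Vwf and Tie1 (endothelial), Crabp2, Cst6 and Grem1 (modulated stroma), C1q genes (macrophage) and Cd3e, Cd3d, Cd79a, Ms4a1 and Nkg7 (lymphocyte). The members and gene lists were chosen with earlier results of these data known. Named genes were the rule genes and markers, the most abundant genes of each list, and the genes of largest ratio: 15 higher and 10 lower in members of both libraries (ranked by the smaller ratio, at least 50 CPM in the higher group), and 12 higher and 12 lower between libraries. Scrublet marked 4 and 0 barcodes by its own threshold, which is too few to have worked, so its highest-scoring barcodes (0.8% per 1000 barcodes) were left out only as an alternative. Other alternatives changed the depth and mitochondrial limits, the gates, the reference, the low-count filter, the weighting, thinning to 1500 UMIs and the scaling. The calculations were tested on simulated data. Python 3.11.15 with scanpy 1.11.5 (Scrublet), scipy 1.17.1 and pandas 2.3.3 was used.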

Additional observations from a re-analysis of the deposited data

Results flagged for a closer look

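Only the genes of the lists and the named genes were searched here, not all genes. For 7 of them the members stood at least 2-fold on opposite sides of other cartilage cells in the libraries. Csf2, Dio2, Penk, Slurp1 and Spink5 had been named as highest in members of the library labelled Kif13b-/- over WT members. That choice favours opposite sides, so their signs are a description. The log2 ratios in WT and in the library labelled Kif13b-/- were 1.23 and -1.62 for Adamts12, -1.99 and 4.1 for Csf2, -1.38 and 1.81 for Dio2, -1.96 and 1.86 for Fst, -3.63 and 1.91 for Penk, -2.57 and 1.2 for Slurp1, and -1.29 and 3.15 for Spink5. The difference between libraries was not tested, and the UMIs of these genes in the members of the library labelled Kif13b-/- came from 2 to 7 barcodes, with 95.8% of Penk, 98.8% of Slurp1, 94.1% of Spink5 and 72.1% of Fst UMIs in 1 barcode. Outside the members, an Ibsp UMI was found in 43.3% of macrophage-gated barcodes of the library labelled Kif13b-/- and in 9.98% of those of WT, at median depths of 7098 and 4353 UMIs. After thinning to 1500 UMIs per barcode an Ibsp UMI was left in 15% and 4.8%. Ibsp summed to 121 CPM over these barcodes and to 24.4 CPM in WT.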

How the results depend on the processing

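The ratio of the share of members in the library labelled Kif13b-/- over WT was 0.152 and stayed under 1 in every alternative run, between 0.0955 (panel of 3 UMIs and 1000 CPM) and 0.207 (at most 10% mitochondrial UMIs), with 0.106 at 5000 UMIs or more and 0.1065 at 10000 or more, a limit added after the data were seen. Within the cartilage gate it moved from 0.402 to 0.252 with the stricter panel. The WT share was 5.72% at 3000 UMIs, 5.31% at 5000, 7.09% at 10000, 3.3% with the stricter panel, 3.69% with a cartilage gate of 10 UMIs and 2000 CPM, 4.05% with Col10a1 and Alpl alone, 3.61% without barcodes passing the smooth muscle or endothelial panel and 2.76% with barcodes thinned to 1500 UMIs before gating. The share in the library labelled Kif13b-/- was 1.01% at 10% mitochondrial UMIs, 0.315% with the stricter panel, 0.536% with Col10a1 and Alpl alone and 0.363% after thinning. Genes 2-fold higher and lower in members numbered 431 and 649 in WT and 554 and 1265 in the other library. The stricter panel gave 1062 lower in WT, and 844 higher and 2313 lower in the other library. With no low-count filter the counts were 2548 and 2442, then 4351 and 2002, since more genes entered. Thinning after gating gave 223 higher in WT and 689 lower in the other library, equal weights for barcodes gave 2024 lower there, and leaving out barcodes with the smooth muscle or endothelial panel 712. Between libraries 1942 genes were 1.5-fold higher and 1813 lower; these were 7256 and 2791 with no filter, and 2961 were lower with equal weights. The cause of the other changes was not tested.

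Among named genes past the fold limit, these turned sign. In WT members over other cartilage cells, without barcodes of the smooth muscle or endothelial panel, Cavin2 was at 0.098, Ptprb at 0.31 and Vwf at 0.14. In the library labelled Kif13b-/- Bmp6 was at -0.33 with thinning, and Cdkn1c at -0.31 with the stricter panel, -0.64 with Col10a1 and Alpl alone, -0.53 with equal weights, -0.85 with thinning, -1.58 without the 5 deepest members and -0.99 without the one of most UMIs. Between libraries, the stricter panel gave Col25a1 -3.36, Ifit3 -1.21, Isg15 -1.24, Mertk -0.54, Mmp13 -2.86, Slurp1 -2.67 and Spink5 -0.97. Col10a1 and Alpl alone gave Col25a1 -2.34, Mmp13 -5.79, Slurp1 -3.25 and Wfdc12 -1.85. Equal weights gave Mertk -0.17, Mmp13 -0.11 and Slurp1 -0.21, and thinning Lbp 0.072, Mertk -1.25, Mmp13 -0.047 and Slurp1 -0.27. Without the 5 deepest members the ratios were -0.046 for Col25a1, -0.071 for Kcnj8, -0.25 for Mertk, -1.89 for Slurp1 and -2.67 for Spink5, and without the deepest one -0.53 for Col25a1 and -2.38 for Slurp1. Under the fold limit, Kif13b between libraries (0.31) kept its sign in 10 of 15 alternatives, with a lowest value of -0.42 without the deepest member. In members over other cartilage cells of the library labelled Kif13b-/-, Comp kept its sign in 14 of 15 (lowest -0.17), Mmp3 in 14 of 15 (highest 0.58) and Prg4 in 12 of 15 (lowest -0.18). List medians that changed sign were those of cartilage matrix genes between libraries (-0.25 at the lowest) and in WT (-0.023), contractile genes in the library labelled Kif13b-/- (0.049) and endothelial genes in WT (0.0081). Ibsp, Panx3, Runx2 and Pth1r kept their side in members over other cartilage cells under all alternatives, Ibsp between 2.64 and 3.95 in WT and between 1.21 and 3.49 in the other library. Between libraries the median of the bone mineral list ran from -0.87 to -0.44. No paired analysis was possible because each genotype has 1 library. With 47 members and 592554 UMIs in the library labelled Kif13b-/-, a gene with no UMI there may still reach 5.06 CPM.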

Other observations

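A further 249 WT barcodes and 28 of the library labelled Kif13b-/- passed the mineralising panel without reaching the cartilage gate. The WT ones carried 897 CPM of Col10a1, 395 CPM of Alpl, 1428 CPM of Ibsp and 2773 CPM of Acta2. The others carried 309 CPM of Alpl, 55.6 CPM of Ibsp, 3038 CPM of Acta2 and no Col10a1 UMI. Another 116 WT and 13 other barcodes passed the panel with C1q genes at 1000 CPM or more, and held 5299 and 4515 CPM of Ibsp. Under the depth limit, 74 WT barcodes of 500 to 1500 UMIs and 2 of the library labelled Kif13b-/- met both gates, with 1917 CPM of Col10a1 and 6749 CPM of Ibsp in WT.

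Among the WT members, 56 held no Ibsp UMI. These carried 4726 CPM of Col10a1 and 77.2 CPM of Ihh but 309 CPM of Alpl, against 2067, 27.4 and 1030 CPM over all WT members, at a median of 2853.5 UMIs. Since 34 of the 39 WT members with an Ihh UMI held Ibsp, the Ihh sum of the 56 rests on few barcodes. Immediate early genes, which are switched on within minutes of stimulation, summed to 14588 CPM in WT members and 10909 CPM in other WT cartilage cells. Of 24 such genes 0 were 2-fold higher and 0 lower in WT, beside 3.02% and 4.55% of all genes. In the library labelled Kif13b-/- they summed to 12581 and 11656 CPM, with 2 of 24 higher and 0 lower, beside 5.08% and 11.6%.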
